A study of Hordeum vulgare with 30 samples.

Results

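Waterlogged roots of the spring barley Golden Promise were compared with waterlogged roots of 4 winter barleys. The comparison used the 15 waterlogged libraries of the 30 in the series, taken by the variety and treatment in their labels: 3 of Golden Promise against 12 of the winter varieties Infinity, Passport, Pilastro and Regina. Each winter variety had 3 libraries and equal weight in the mean. Plants were 10 days old when water was raised above the soil, and roots were taken after 24 h, while control plants of the same varieties were watered normally. Golden Promise, Infinity and Regina are two-row barleys, and Passport and Pilastro are six-row barleys. Each library was made from the pooled roots of 3 plants. Golden Promise was the only spring variety, so that season and variety cannot be told apart, and p-values measure the spread between libraries of these 5 varieties, not between spring and winter barleys. The study had selected the winter varieties partly by how strongly HvHB and HvADH1 responded to waterlogging in RT-qPCR, so that the levels of these genes are not independent of that choice. Pilastro and Regina were taken for a potentially stronger response, Passport for a dampened one and Infinity as average. Golden Promise was included as a reference variety.

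Roots in waterlogged soil run short of oxygen, and plant cells then make ATP by glycolysis and regenerate NAD+ by fermentation, in which pyruvate decarboxylase (PDC) and alcohol dehydrogenase (ADH) turn pyruvate into ethanol. Hemoglobins of class 1 scavenge the nitric oxide that builds up, and respiratory burst oxidases produce reactive oxygen species that act as signals. In Arabidopsis, group VII ethylene response factors (ERF-VIIs) such as RAP2.12 switch these genes on once low oxygen stops their degradation. Waterlogging also alters ethylene, abscisic acid and jasmonate signaling.

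Waterlogged libraries held 10430091 to 12349136 counts each, with 11974434 to 12349136 in Golden Promise and 10430091 to 12277466 in the winter varieties. Golden Promise libraries had counts in 21433 to 21511 genes and the winter ones in 21301 to 21700. Of the 35826 genes, 20576 passed edgeR's filter on low counts and were tested. Levels are given as counts per 1000000 counts (CPM) of a library total scaled by edgeR's TMM factor, in each library or as mean ± SD (n = 3). Differences are log2 differences ± standard error, Golden Promise minus the mean of the winter varieties. A gene is called higher or lower at a Benjamini-Hochberg adjusted p under 0.05 in edgeR's quasi-likelihood test. In the same group, libraries differed far beyond counting error, with a chi-square per degree of freedom of 13.9 to 57.2, the highest between replicates 1 and 3 of waterlogged Infinity. The 6 nitrate transporters, as root genes, summed to 369.6 to 552 CPM in Golden Promise and 406 to 1068 CPM in the winter libraries, and 6 genes of green tissue to 0.635 to 2.17 CPM and 0.669 to 6.56 CPM. Gene IDs are given without the shared start HORVU.MOREX.r3, and the first 2 characters give the chromosome.

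Of the genes tested, 2922 differed between Golden Promise and the winter varieties in waterlogged roots, which is 14.2% of them: 1547 (7.52%) were higher and 1375 (6.68%) lower in Golden Promise. The median size of the difference among the called genes was 0.82 on the log2 scale, and 1192 of them differed by at least 2-fold, 563 higher and 629 lower. The median difference over all genes tested was -0.01. In 1370 genes (6.66%) the 3 Golden Promise libraries lay outside the range of all 12 winter libraries, above it in 709 (3.45%) and below it in 661 (3.21%). Of these, 1180 were called. No other variety stood apart in that many genes when its 3 libraries were set against the other 12: 882 genes lay outside in Infinity, 608 in Pilastro, 573 in Passport and 336 in Regina. In edgeR's test of each variety against the mean of the other 4, 2297 genes were called in Infinity (11.2%), 1721 in Pilastro (8.36%), 1364 in Passport (6.63%) and 1132 in Regina (5.5%). The difference between these counts was not tested, and they share libraries. The count for Golden Promise was 1667 without its replicate 1 and 1816 without its replicate 3.

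**Figure D1:**
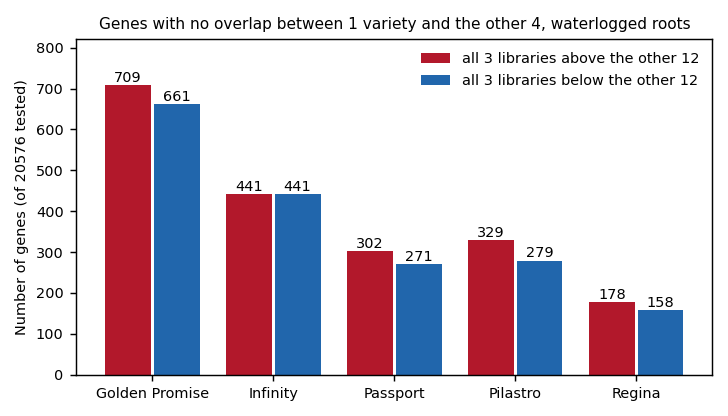
Number of genes (y axis) whose 3 waterlogged libraries of 1 variety all lay above (red) or all below (blue) the 12 waterlogged libraries of the other 4 varieties (x axis: the variety set apart). Golden Promise had 709 genes above and 661 below, and Regina had the fewest with 178 and 158.

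Several genes of the hypoxia response were lower in waterlogged Golden Promise, and none was called higher. The study named 15 of them by gene ID (fermentation enzymes, hemoglobins, a respiratory burst oxidase and ERF-VII homologs) and all of them were tested. HvHB, HvADH1 and HvPDC1 were markers already in use, but HvHB and HvADH1 had also served to choose the varieties. Pilastro and Regina were taken for high levels of both, so that a lower level in Golden Promise than in them is partly built in. The study picked most of the other genes by their response in these libraries, so that the count over the 15 is not independent evidence of a direction. In edgeR's test 8 were called lower and 0 higher, against 6.68% of all genes called lower, and the median difference over the 15 was -1.31 against -0.01 over all genes tested. Estimates were negative for 12 of the 15. With 1 waterlogged library left out at a time, 4 to 9 of them were called lower. The lowest count came without Golden Promise replicate 1 or 3, and the highest without Infinity replicate 3, the winter library with the lowest level of most of these genes. Whether fewer responding cells or less RNA per cell lay behind a lower level cannot be told apart in pooled roots.

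Fermentation genes differed most in ADH1_A (1HG0082960), an alcohol dehydrogenase. Its level was 14.1, 30.6 and 5.88 CPM in the Golden Promise libraries and 36.0 to 1001 CPM with a median of 257 in the winter libraries. All Golden Promise libraries lay below all winter ones, and the mean was 16.8 ± 12.6 CPM against 199 ± 48.6 in Passport, 332 ± 91.6 in Regina, 489 ± 237 in Pilastro and 432 ± 505 in Infinity. The difference was -4.35 ± 0.78 (adjusted p = 0.000353), a 20.4-fold lower level in Golden Promise. It was called against each winter variety alone, and under all 19 alternatives of the analysis. HvADH1 (4HG0345760) held 205, 396 and 199 CPM in Golden Promise and 279.8 to 1410.1 CPM with a median of 631 in the winter libraries. The highest Golden Promise library overlapped with the winter range, and the difference of -1.31 ± 0.43 lay close to the threshold (adjusted p = 0.0444). ADH1_D (4HG0345740), which lies near HvADH1 in the order of gene IDs, held 249, 471 and 199 CPM against 278 to 2712 CPM with a median of 993. Its difference was -1.78 ± 0.58 (adjusted p = 0.0434), again with overlap. The calls of HvADH1 and ADH1_D were lost without 1 library in 11 and 10 of 15 cases, up to adjusted p = 0.205 and 0.197.

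ADH1_B (2HG0115170) held 25.7, 46.6 and 27.0 CPM in Golden Promise and 31.2 to 172 CPM in the winter libraries, and its difference was not called (-1.30 ± 0.78, adjusted p = 0.301). ADH1_C (3HG0252910) was at 0 in the 3 Passport libraries. Its level was 7.11, 13.0 and 6.84 CPM in Golden Promise, with means of 22.1 ± 6.69 CPM in Pilastro and 25.8 ± 18.2 in Infinity, and it was not called (adjusted p = 0.404). HvPDC1 (4HG0384560), a pyruvate decarboxylase that feeds acetaldehyde to these dehydrogenases, held 459, 607 and 511 CPM in Golden Promise and 389.7 to 2351 CPM with a median of 1391 in the winter libraries. Infinity replicate 3, at 389.7 CPM, lay below the Golden Promise range and Passport replicate 2 inside it, and the other 10 winter libraries lay above it. The level was 2.53-fold lower in Golden Promise (difference -1.34 ± 0.37, adjusted p = 0.017). This call was lost in 2 of the 15 fits without 1 library, up to adjusted p = 0.102 without Golden Promise replicate 1, and when the 15 waterlogged libraries were fitted alone. Replicate 2 held the highest Golden Promise level of ADH1_A, HvADH1, ADH1_D and HvPDC1. The sources used here do not say how reads shared by near-identical ADH copies were assigned, so the split of counts among these copies is uncertain.

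Both hemoglobin genes were lower in Golden Promise. HvHB (4HG0394960) held 23.1, 68.7 and 20.7 CPM in its libraries and 124 to 1206 CPM with a median of 657 in the winter libraries, with no overlap. Winter means ran from 185 ± 23.4 CPM in Passport and 361 ± 256 in Infinity to 929.8 ± 263 in Regina and 1022 ± 152 in Pilastro. Golden Promise was thus 13.4-fold lower than their mean on the log scale (difference -3.74 ± 0.73, adjusted p = 0.000919), and against Passport alone the adjusted p was 0.0515. HB1_A (7HG0715010), a second hemoglobin, held 121, 184 and 104 CPM in Golden Promise and 157 to 567 CPM with a median of 294. Golden Promise replicate 2, the highest of its group for both genes, lay above Infinity replicate 3, the lowest winter library, and the difference was -1.22 ± 0.28 (adjusted p = 0.00394). The respiratory burst oxidase (5HG0444960) held 129, 204 and 178 CPM in Golden Promise and 139 to 1128 CPM with a median of 524 in the winter libraries, of which Infinity replicate 3 alone fell into the Golden Promise range. Its difference of -1.74 ± 0.62 was not called (adjusted p = 0.0635). It was called under 3 of the 19 alternatives, among them DESeq2 (adjusted p = 0.0123). In edgeR the adjusted p was 0.08 with replicate number as a block, and up to 0.235 without 1 library (Golden Promise replicate 1).

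ERF-VII homologs, named after their Arabidopsis counterparts, differed among themselves. Of 6 tested, 2 were called lower and 0 higher (33.3% called against 14.2% of all genes). The second RAP2.3 homolog (2HG0112960) held 1.66, 3.65 and 2.90 CPM in Golden Promise and 6.76 to 42.3 CPM with a median of 15.1 in the winter libraries, all of them above Golden Promise. The difference was -2.75 ± 0.57, or 6.72-fold lower (adjusted p = 0.00173). An HRE2 homolog (5HG0497970) held 38.9, 54.9 and 32.2 CPM against 57.9 to 518 CPM with a median of 213, also without overlap, and was lower by 2.49 ± 0.67 on the log2 scale (adjusted p = 0.0142). The first RAP2.3 homolog (1HG0060770) held 38.1, 39.9 and 32.2 CPM in Golden Promise and 43.9 to 92.8 CPM with a median of 73.7. These libraries did not overlap either, yet the difference of -0.96 ± 0.43 was not called (adjusted p = 0.144). The HRE1 homolog (4HG0405650), with the highest level of the 6, held 1468, 1546 and 1561 CPM in Golden Promise and 856 to 1603 CPM with a median of 1058 in the winter libraries. Golden Promise lay inside the upper part of that range, and the difference was 0.43 ± 0.27 (adjusted p = 0.325). The RAP2.12 homolog (5HG0481240) and a second HRE2 homolog near a waterlogging tolerance locus (6HG0621670) held 201 ± 9.46 and 123 ± 10.5 CPM in Golden Promise. Both overlapped with the winter range, with differences of -0.15 ± 0.16 and 0.07 ± 0.12 (adjusted p = 0.596 and 0.76). The HRE2 homolog 5HG0497970 lost its call in 2 of the 15 fits without 1 library, without Golden Promise replicate 1 or 3.

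**Figure D2:**
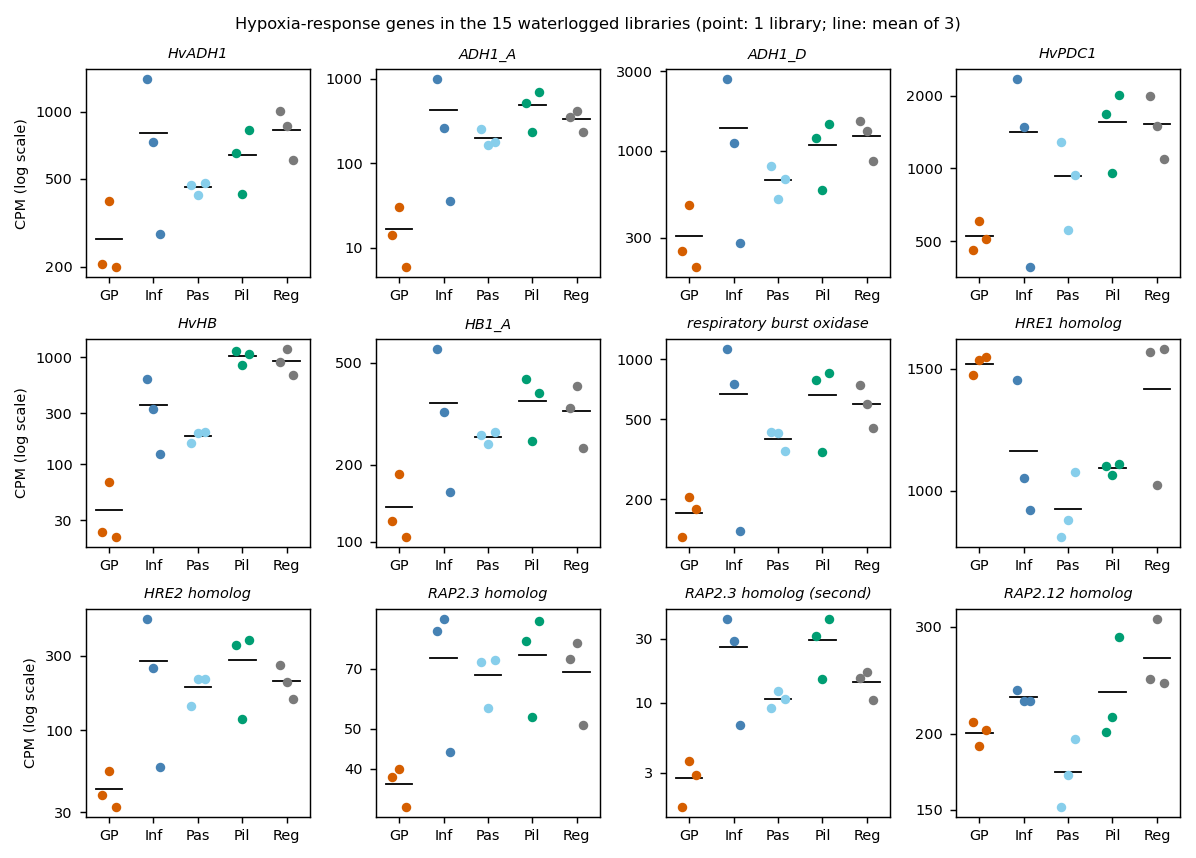
Level in CPM (log axis) of 12 hypoxia-response genes in each waterlogged library, by variety (GP, Golden Promise; Inf, Infinity; Pas, Passport; Pil, Pilastro; Reg, Regina), with a line at the mean of the 3 libraries. The Golden Promise points of ADH1_A, HvHB, the HRE2 homolog and both RAP2.3 homologs lay below every winter point, whereas those of the HRE1 homolog, between 1468 and 1561 CPM, lay in the upper part of the winter range.

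Of 7 tested genes that the study named for a fall under waterlogging, 2 were called higher and 0 lower in Golden Promise (28.6% called against 14.2% of all genes). Both were peroxidases near their detection limit. 2HG0119650 held 0.474, 0.397 and 0.724 CPM in Golden Promise and had at most 3 counts in every library of Passport, Pilastro and Regina (adjusted p = 0.00685). 2HG0119630 held 0.395, 0.556 and 0.644 CPM, with Passport and Regina at or under 3 counts (adjusted p = 0.0272). Infinity had a mean of 0.502 ± 0.541 and 0.660 ± 0.708 CPM of these genes, close to Golden Promise. Another peroxidase that the study named, 2HG0215440, was also near the limit and was not called (difference -0.34 ± 0.79, adjusted p = 0.838). An aldehyde dehydrogenase (2HG0173750) held 111, 117 and 122 CPM in Golden Promise and 99.0 to 135 CPM in the winter libraries, a difference of 0.07 ± 0.09. The adjusted p was 0.686 there, 0.453 for a nitrate transporter (7HG0700030, difference 0.21 ± 0.17), 0.657 for a GABA transaminase homolog (2HG0190680, -0.14 ± 0.17) and 0.271 for a cation exchanger (3HG0266310, 0.51 ± 0.29). 2HG0119630 lost its call in 3 of the 15 fits without 1 library, and the highest adjusted p was 0.0942, without Golden Promise replicate 3.

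Alpha-amylases break down starch, and of 6 tested genes of this name 3 were lower and 0 higher in Golden Promise (50% called against 14.2% of all genes, median difference -1.46). Of the 16 such genes, 9 had no count in any waterlogged library of Golden Promise, and 9 had none in any waterlogged winter library. The most abundant of the called genes, 7HG0721200, held 12.3, 13.7 and 13.8 CPM in Golden Promise and 40.8 to 161 CPM with a median of 68.4 in the winter libraries, without overlap. It was 5.87-fold lower (difference -2.55 ± 0.38, adjusted p = 4.22e-05), and the other 2, 7HG0721060 and 7HG0721210, with 0.426 ± 0.400 and 0.239 ± 0.0786 CPM in Golden Promise, were lower by 2.94 ± 0.75 and 2.53 ± 0.76 on the log2 scale (adjusted p = 0.00909 and 0.0267). All 3 also lay below every winter library. Over all 16 genes the level summed to 119 to 158 CPM in Golden Promise and 173 to 282 CPM in the winter libraries, with medians of 150 and 208. In Golden Promise most of this sum came from alpha-amylases that were not called. 7HG0721060 and 7HG0721210 lost their calls in 1 and 3 of the 15 fits without 1 library, with highest adjusted p-values of 0.0633 and 0.109 without Golden Promise replicate 1 and 2, in this order. Alpha-amylases can come from seed remains on the root, and the other seed genes at hand, 7 of the 11S globulins, summed to 168 to 322 CPM in Golden Promise and 126 to 540.1 CPM in the winter libraries, with 1 of 5 tested called higher and 0 lower. The part of seed tissue in the result was not tested. Pyruvate, phosphate dikinase (1HG0062940), which interconverts pyruvate and phosphoenolpyruvate, held 0, 12.9 and 7.89 CPM in Golden Promise and 40.9 to 254 CPM with a median of 105 in the winter libraries. No library overlapped, and the difference was -4.11 ± 0.89 (adjusted p = 0.00251). A mitochondrial pyruvate carrier near a tolerance locus (2HG0177820) held 57.9, 43.8 and 51.4 CPM against 53.9 to 78.2, and was lower by 0.38 ± 0.12 on the log2 scale (adjusted p = 0.0272). Of 6 invertases, which cleave sucrose, 0 were called. 2HG0177820 lost its call in 5 of the 15 fits without 1 library, and the highest adjusted p was 0.176, without Golden Promise replicate 2.

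The alcohol dehydrogenase family as a whole was split. Of 40 genes with this description, 30 were tested, and 5 were higher and 6 lower in Golden Promise, 36.7% called against 14.2% of all genes. Their median difference was -0.10. Besides the fermentation genes above, Alcohol dehydrogenase 3 (6HG0627090) went the other way: it held 47.9, 52.3 and 43.0 CPM in Golden Promise and 4.04 to 22.9 CPM with a median of 5.73. Every Golden Promise library lay above every winter library, with Regina nearest at 22.1 ± 1.02 CPM, and the difference was 2.65 ± 0.11 (adjusted p = 4.75e-14). A family 3 gene (3HG0324080) held 1.52 ± 0.649 CPM in Golden Promise and 1.11 ± 0.616 in Pilastro, and at most 3 counts per library in the other varieties (adjusted p = 0.000235). Of 16 tested aldehyde dehydrogenases, 0 were higher and 1 lower (6.25%). This gene (2HG0110060) held 43.3, 44.7 and 35.1 CPM against 42.7 to 58.0 CPM, a difference of -0.31 ± 0.10 (adjusted p = 0.0451). 2HG0110060 lost its call in 10 of the 15 fits without 1 library, and the highest adjusted p was 0.311, without Golden Promise replicate 3.

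In ethylene biosynthesis, 3 of 13 tested genes were higher and 1 lower in Golden Promise (30.8% called against 14.2% of all genes). The lower gene was an ACC synthase (4HG0339160), which makes the ethylene precursor ACC: it held 3.48, 2.38 and 1.69 CPM in Golden Promise and 5.69 to 17.7 CPM with a median of 9.36. All winter libraries lay above Golden Promise, and the difference was -2.04 ± 0.53 (adjusted p = 0.0107). The higher genes were ACC oxidases, which turn ACC into ethylene. The gene 6HG0618640 held 11.9, 11.1 and 15.9 CPM against 1.95 to 7.09 CPM with a median of 4.84, above every winter library (difference 1.47 ± 0.36, adjusted p = 0.00735). The gene 5HG0485780, in contrast, lay above 3 of the 4 winter varieties on average, with 59.2, 72.0 and 36.8 CPM in Golden Promise and means of 28.5 ± 9.53 in Regina, 10.1 ± 2.42 in Passport and 12.8 ± 7.42 in Infinity but 158 ± 60.8 in Pilastro (difference 1.02 ± 0.30, adjusted p = 0.0255). In jasmonate biosynthesis, 2 of 18 tested genes were higher and 0 lower (11.1%), a share under that of all genes. A 12-oxophytodienoate reductase-like gene (1HG0002380) held 17.6 ± 1.60 CPM in Golden Promise, below 23.0 ± 7.58 in Infinity and 32.7 ± 1.90 in Passport and above 1.67 ± 0.293 in Pilastro and 1.29 ± 0.198 in Regina, and the difference from their mean on the log scale was 1.46 ± 0.17 (adjusted p = 9.57e-07). An allene oxide synthase (6HG0542940) held 3.71, 1.67 and 3.14 CPM against 0.190 to 2.71 CPM (difference 1.42 ± 0.40, adjusted p = 0.0196). Of 8 abscisic acid receptors, 1 was lower (12.5%), again under the share of all genes. This gene, 7HG0717820, held 6.79, 4.45 and 9.09 CPM against 6.39 to 29.6 CPM with a median of 12.3, with overlap (difference -1.05 ± 0.32, adjusted p = 0.0315). 4HG0339160, 6HG0618640, 5HG0485780, 6HG0542940 and 7HG0717820 lost their calls in 1, 1, 2, 2 and 2 of the 15 fits without 1 library, with highest adjusted p-values of 0.0795, 0.0661, 0.166, 0.16 and 0.165 without Golden Promise replicate 3, 3, 2, 1 and 2, in this order.

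Of 13 genes for 4-coumarate-CoA ligase, which activates coumaric acid for lignin and other phenolics, 1 was higher and 1 lower (15.4% called against 14.2% of all genes). The lower gene (3HG0305220) held 11.8, 10.2 and 8.61 CPM against 12.7 to 29.6 CPM with a median of 22.6, below every winter library (difference -1.10 ± 0.19, adjusted p = 0.000184). The higher one (4HG0341970) held 47.9, 38.6 and 55.9 CPM against 14.1 to 40.0 CPM, with overlap (0.96 ± 0.19, adjusted p = 0.000925). Agmatine coumaroyltransferases make precursors of the hordatines, antifungal compounds of barley, and 2 of 19 were higher and 3 lower (26.3%). The gene 2HG0215740 was low in Golden Promise (2.16 ± 1.13 CPM) and Pilastro (2.54 ± 1.31 CPM) and higher in Regina (18.6 ± 5.52), Passport (18.3 ± 2.80) and Infinity (26.7 ± 9.65), with a difference of -2.51 ± 0.43 (adjusted p = 0.000224). The genes 6HG0627420 and 6HG0627440 were detected above 3 counts per library only in Golden Promise (3.17 ± 1.16 and 0.691 ± 0.259 CPM) and Regina (2.16 ± 0.456 and 0.514 ± 0.143 CPM). Among 25 ABC transporters of family G, 2 were higher and 3 lower (20%). The 3 lower genes were 3HG0283500 (difference -1.61 ± 0.47, adjusted p = 0.0235), 4HG0386360 (-1.78 ± 0.46, adjusted p = 0.0099, with at most 1.33 CPM in any waterlogged library) and 7HG0752960 (-1.49 ± 0.36, adjusted p = 0.00568). For 3HG0283500, Golden Promise with 2.36 ± 0.788 CPM lay above Infinity (1.67 ± 1.33) on average. It lay below Passport (7.49 ± 1.13), Regina (12.4 ± 7.13) and Pilastro (17.4 ± 9.48). Of 14 tested 3-ketoacyl-CoA synthases, which elongate very-long-chain fatty acids, 1 was lower (7.14%). This gene, 6HG0577300, held 166, 179.5 and 164 CPM against 162 to 318 CPM (-0.45 ± 0.12, adjusted p = 0.0153). 3HG0283500, 4HG0386360 and 6HG0577300 lost their calls in 2, 2 and 2 of the 15 fits without 1 library, with highest adjusted p-values of 0.139, 0.0982 and 0.0843 without Golden Promise replicate 3, 1 and 1, in this order.

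Enzymes that use 2-oxoglutarate and oxygen form a large family, of which 9 of 80 tested were higher and 7 lower (20% called against 14.2% of all genes). The gene 4HG0417190 held 10.4, 12.2 and 11.3 CPM in Golden Promise and had no count in the 12 winter libraries, an at least 42.3-fold higher level when 3 counts are allowed in each of them. EdgeR's adjusted p was 6.96e-07, and DESeq2's 0.215. Its neighbor 4HG0417290 held 3.63, 2.70 and 4.67 CPM against at most 0.188 CPM in a winter library. In contrast 2HG0099150 held 1.26, 0.794 and 0 CPM against 3.25 to 106 CPM with a median of 6.81, below all winter libraries (difference -3.83 ± 0.85, adjusted p = 0.00317). Of 50 amino acid transporters, 2 were higher and 3 lower (10%). The gene 2HG0173520 held 28.8, 19.1 and 43.0 CPM in Golden Promise and 3.35 to 10.3 CPM with a median of 5.76, above every winter library (difference 2.32 ± 0.24, adjusted p = 2.61e-07), while 2HG0213700 held 2.28 ± 0.789 CPM in Golden Promise and was lower by 1.93 ± 0.52 on the log2 scale (adjusted p = 0.0141), as was 3HG0234440 by 0.94 ± 0.30 (adjusted p = 0.0398). Amine oxidases break down polyamines, and of the 7 tested (28.6% called) 1 was higher (4HG0403000, 9.64, 10.5 and 10.9 CPM against 0.762 to 8.66 CPM, difference 1.68 ± 0.39, adjusted p = 0.00415) and 1 lower (2HG0211680, -0.64 ± 0.20, adjusted p = 0.0303). 2HG0213700, 3HG0234440 and 2HG0211680 lost their calls in 2, 8 and 3 of the 15 fits without 1 library, with highest adjusted p-values of 0.0897, 0.159 and 0.198 without Golden Promise replicate 3, 2 and 3, in this order. Genes for the 26S proteasome, which breaks down ubiquitin-tagged proteins, had 7 of 35 lower and 3 higher (28.6%). The 7 lower genes differed by -0.59 to -0.22, whereas the 3 higher genes (7HG0727930, 7HG0727950 and 7HG0727970) are near one another in the order of IDs and held 3.87, 2.53 and 4.14 CPM on average in Golden Promise, with 2 or more winter varieties at or under 3 counts. None of these 3 was called by DESeq2. 7HG0727950 and 7HG0727970 lost their calls in 4 and 1 of the 15 fits without 1 library, with highest adjusted p-values of 0.126 and 0.0686 without Golden Promise replicate 3 and 1, in this order. Of 26 heat shock protein 70 and chaperonin genes and of 5 acidic endochitinases 0 were called.

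**Figure D3:**
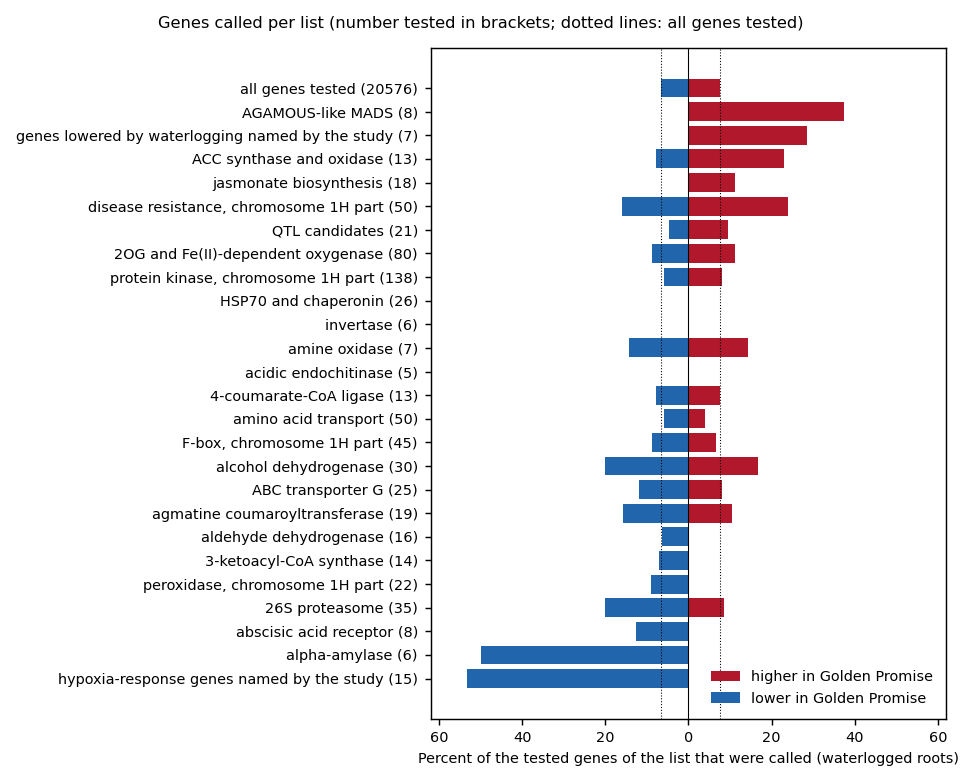
Percent of the tested genes of each list (y axis, with the number tested) that were called higher (red, right) or lower (blue, left) in waterlogged Golden Promise than in the winter varieties (x axis). Dotted lines mark the 7.52% higher and 6.68% lower among all genes tested, and the bars of the hypoxia-response genes and alpha-amylases stand for 8 of 15 and 3 of 6 genes called lower and 0 higher.

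For the part of chromosome 1H whose descriptions were at hand, 4 families were followed. Disease resistance genes, which encode immune receptors, were called most often, with 12 of 50 higher and 8 lower (40% against 14.2%). Their levels split the winter varieties as well. The RPM1-like gene 1HG0003200 held 13.3, 16.3 and 13.4 CPM in Golden Promise, 13.2 ± 2.03 in Passport and 9.57 ± 0.894 in Infinity, but at most 3 counts per library in Pilastro and Regina (adjusted p = 2.11e-13). Another RPM1-like gene, 1HG0000520, had at most 3 counts in each Golden Promise library and stood at 11.3 ± 5.12 CPM in Pilastro, with under 1 CPM in the other varieties (adjusted p = 0.00734). Of 138 genes with kinase in their description, 11 were higher and 8 lower (13.8%). Among the 8 was the pyruvate, phosphate dikinase given above (1HG0062940), taken in by the match of this word. A putative receptor kinase (1HG0000730) held 8.37, 6.28 and 8.05 CPM in Golden Promise against 0 to 6.01 CPM with a median of 1.15, and the difference was 3.14 ± 0.46 (adjusted p = 3.42e-05). A leucine-rich repeat receptor kinase (1HG0000580) held 4.34, 5.40 and 2.49 CPM against at most 2.07 CPM, with Pilastro at 0 (adjusted p = 6.43e-05). F-box genes, which choose targets for ubiquitination, had 3 of 45 higher and 4 lower (15.6%). The gene 1HG0042080 was low in Golden Promise (1.67 ± 0.429 CPM), Pilastro (1.89 ± 0.237) and Regina (2.22 ± 0.557) and high in Infinity (24.5 ± 3.13) and Passport (26.1 ± 1.85), so that its difference of -2.10 ± 0.17 (adjusted p = 5.51e-09) did not set Golden Promise apart. Peroxidases had 0 of 22 higher and 2 lower (9.09%), under the share of all genes. Their median difference was -0.62, and 19 of 22 estimates lay below 0, against 10456 of the 20576 genes tested. The called genes were 1HG0067930 (19.9, 19.5 and 16.8 CPM against 20.7 to 39.8 CPM, difference -0.65 ± 0.19, adjusted p = 0.0235) and 1HG0067960 (-1.03 ± 0.35, adjusted p = 0.0489). 1HG0000520, 1HG0067930 and 1HG0067960 lost their calls in 2, 3 and 12 of the 15 fits without 1 library, with highest adjusted p-values of 0.0588, 0.133 and 0.269 without Golden Promise replicate 1, 3 and 1, in this order.

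Of 8 tested genes with an AGAMOUS-like MADS-box description, a family of transcription factors, 3 were higher and 0 lower (37.5% called against 14.2% of all genes). All 3 had an adjusted p between 0.0455 and 0.0496, and none of them was called in more than 4 of the 15 fits without 1 library. Of these, 1HG0008610 held 31.0 ± 3.88 CPM in Golden Promise, within the winter means from 7.29 ± 1.06 in Regina to 40.4 ± 1.27 in Infinity. Among 21 tested candidates near waterlogging tolerance loci, 2 were higher and 1 lower, the pyruvate carrier above (14.3% called against 14.2% of all genes). A transporter-related gene (5HG0508840) held 33.9, 35.4 and 40.4 CPM in Golden Promise against 9.07 to 24.7 CPM with a median of 16.3, above every winter library (difference 1.06 ± 0.18, adjusted p = 0.000268). A haloacid dehalogenase-like hydrolase (5HG0422490) differed by 0.34 ± 0.11 (adjusted p = 0.0401), and a potassium transporter (7HG0736590) with 2.63 ± 0.938 CPM in Golden Promise was not called (0.89 ± 0.33, adjusted p = 0.0768). 5HG0422490 lost its call in 8 of the 15 fits without 1 library, and the highest adjusted p was 0.219, without Golden Promise replicate 1.

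Some of the largest differences came from genes that were read in the winter varieties and hardly or not at all in Golden Promise. Of the genes tested, 11 had at most 3 counts in each Golden Promise library and at least 10 CPM in every winter library, and 5 showed the reverse. With 3 counts allowed in each library of the low side, the 11 genes were at least 65.8 to 489-fold lower and the 5 genes at least 42.3 to 141-fold higher. In control roots, 10 of the 11 genes again had at most 3 counts in each Golden Promise library, and all 5 of the reverse kind again had at most 3 counts in each winter library. The minimum of 10 CPM on the other side was not applied there. For 1HG0079280, 5HG0431030 and 5HG0431050, which are among the 11, the lowest winter control library was at 0 CPM. Among the 11 was a carbamoyl-phosphate synthase large chain gene (1HG0054650), an enzyme of arginine and pyrimidine synthesis, with 0 counts in Golden Promise and 23.2 to 35.9 CPM in the winter libraries, at least 115-fold lower. An alpha/beta-hydrolase (5HG0449710) also had 0 counts, against 12.4 to 20.4 CPM, and a gene described as myosin-4 (4HG0355460) had at most 3 counts, against 17.1 to 27.4 CPM. They were at least 65.8 and 93.5-fold lower. The most abundant of the 11 has no description (2HG0202040), with 0 counts in Golden Promise and 97.3 to 135 CPM in the winter varieties. A subunit of acetyl-CoA carboxylase (3HG0221310), the enzyme that starts fatty acid synthesis, was at 0 in Golden Promise and at 7.24 to 77.8 CPM in the winter libraries. An ATP-binding cassette gene of subfamily A (1HG0058420) held 0.869, 0.635 and 0 CPM against 16.2 to 21.1 CPM with a median of 18.8, 36.7-fold lower (difference -5.20 ± 0.42, adjusted p = 3.15e-09), and a receptor lectin kinase (2HG0100720) 0.474, 0.477 and 0.0805 CPM against 3.59 to 10.3 CPM with a median of 8.61 (-4.43 ± 0.37, adjusted p = 6.9e-09). The reads had been aligned to the genome of another variety, Morex, and the part of sequence differences from it in these low counts was not tested.

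Several genes were higher in Golden Promise than in every winter library. SKP1-like protein (5HG0493560), an adaptor of ubiquitin ligases, held 41.0, 40.4 and 35.9 CPM in Golden Promise. It stood at 26.1 ± 3.46 CPM in Infinity and 27.9 ± 0.297 in Passport but at 1.97 ± 0.323 in Pilastro and 0.675 ± 0.600 in Regina (difference 2.80 ± 0.20, adjusted p = 4.16e-10). The pattern was turned around in a gene for vacuolar protein sorting-associated protein 52 (1HG0045540), which acts in transport back to the Golgi: it held 51.5, 53.8 and 51.9 CPM in Golden Promise, 37.4 ± 6.24 in Pilastro and 42.4 ± 6.18 in Regina, but 3.96 and 4.51 on average in Infinity and Passport (difference 2.01 ± 0.16, adjusted p = 3.06e-09). A phospholipid-transporting ATPase (1HG0069040) held 16.7, 13.2 and 17.4 CPM against 2.09 to 8.72 CPM with a median of 4.71 (1.77 ± 0.16, adjusted p = 3.69e-08), and a choice-of-anchor C domain gene (2HG0178040) 5.21, 5.24 and 10.1 CPM against 0.677 to 4.37 CPM with a median of 1.72 (1.77 ± 0.50, adjusted p = 0.02). 2HG0178040 lost its call in 1 of the 15 fits without 1 library, and the highest adjusted p was 0.183, without Golden Promise replicate 3. The smallest p-values among the higher genes belonged to genes without a description at hand. The gene 2HG0212120 held 127, 128 and 131 CPM in Golden Promise and 30.6 to 35.4 CPM in the winter libraries, and 5HG0507840 held 74.5, 73.9 and 91.3 CPM against 18.5 to 23.6 CPM. They were 4.02-fold and 3.73-fold higher (differences 2.01 ± 0.05 and 1.90 ± 0.06, adjusted p = 8.01e-18 and 5.99e-16), with little spread within either side. The gene 2HG0101220 held 2.21, 1.91 and 3.06 CPM against 14.7 to 26.8 CPM and was 9.08-fold lower (difference -3.18 ± 0.13, adjusted p = 4.7e-14).

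To see which differences existed without waterlogging, the same contrast was tested in the 15 control libraries, which share no library with the waterlogged ones. Both contrasts came from the same fit. Deviations of same-numbered control and waterlogged libraries of a variety correlated above 0.1 in 12 of 15 pairs, so that the contrasts are not fully independent. The control contrast called 2972 genes (14.4%), 1828 higher (8.88%) and 1144 lower (5.56%) in Golden Promise. Of the waterlogged calls, 1704 were also called in control roots with the same sign, 58.3% of the waterlogged and 57.3% of the control calls, and 1 with the opposite sign. That gene on chromosome 4H, singled out after its values were seen, has no description at hand. It was higher in waterlogged Golden Promise (0.48 ± 0.12, adjusted p = 0.0115) and lower in control Golden Promise (-0.43, adjusted p = 0.032). Without Golden Promise replicate 3 its adjusted p in waterlogged roots was 0.0631. Of the 2922 waterlogged calls, 2821 (96.5%) had an estimate of the same sign in control roots, against 74% of all genes tested. A further 1217 genes were called in waterlogged roots only, but a call on one side of the threshold does not show a difference between treatments. The test of that difference, waterlogged minus control, called 2 genes by edgeR (0.00972%), with 1013 at an unadjusted p under 0.05 (4.92%) and 28 by DESeq2. Both were singled out after their values were seen. The first, a gene on 5H with no description at hand, held 60.5, 54.8 and 45.3 CPM in waterlogged Golden Promise and 2.83 to 5.93 CPM in the winter libraries, and its difference grew by 2.01 on the log2 scale (adjusted p = 0.00216). The other, an SGF29 tudor-like domain gene (5HG0450920), had 0 counts in the 3 waterlogged Golden Promise libraries and 18.3 ± 1.37 CPM in its controls (adjusted p = 0.00407). Of the 12 winter libraries, Pilastro replicate 3 was also at 0. With same-numbered control and waterlogged libraries of a variety kept together as a block, 8 genes were called for the change, 1 of them shared, and 5HG0450920 was not called (adjusted p = 0.167).

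**Figure D4:**
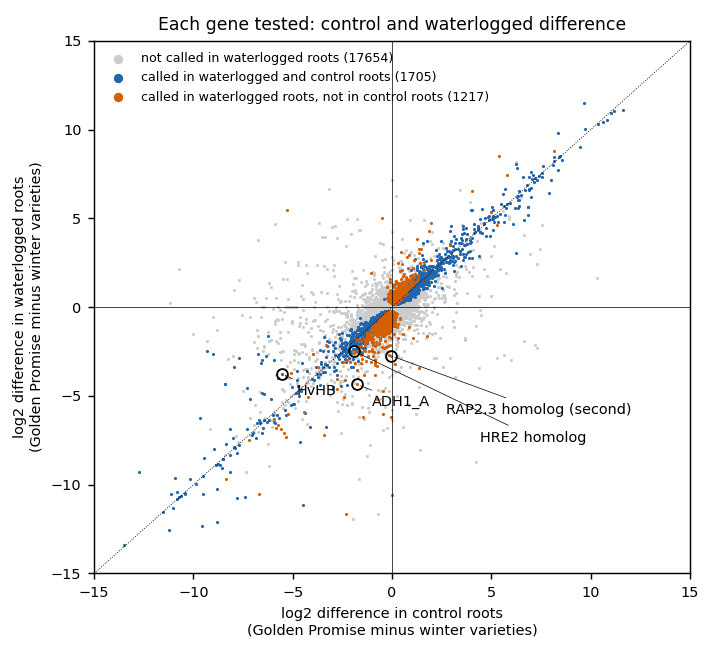
For each gene tested, the log2 difference Golden Promise minus winter varieties in control roots (x axis) and in waterlogged roots (y axis); blue, called in both; orange, called in waterlogged roots only; grey, not called in waterlogged roots; dotted line, equal differences. Most called genes lie along the dotted line, with 1704 called in both with the same sign, and of the 4 circled genes ADH1_A and the second RAP2.3 homolog lie farthest below it.

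Of the 15 hypoxia-response genes, 6 were lower and 0 higher in control Golden Promise, against 5.56% of all genes called lower there. Of these 6, HvHB, HvPDC1 and ADH1_D were called lower in both treatments, and ADH1_B, the respiratory burst oxidase and the first RAP2.3 homolog in control roots alone. HvHB was already lower in control Golden Promise (difference -5.54, adjusted p = 0.000526), with 0.431 ± 0.747 CPM there and means from 5.78 ± 5.09 CPM in control Infinity to 155 ± 126 in control Pilastro. HvPDC1 (-1.18, adjusted p = 0.0344), ADH1_D (-1.99, adjusted p = 0.0322), the respiratory burst oxidase (-2.08, adjusted p = 0.0381) and the first RAP2.3 homolog (-1.59, adjusted p = 0.0332) were also lower in control roots. ADH1_B had no count in control Golden Promise (adjusted p = 0.021), and neither had ADH1_C, which was not called (adjusted p = 0.0912), so that no fold is given for them. ADH1_A held 1.16 ± 1.07 CPM in control Golden Promise and 2.02 to 9.48 CPM on average in the winter controls (difference -1.75, adjusted p = 0.213), and the second RAP2.3 homolog held 1.06 ± 0.599 CPM and 0.813 to 1.85 CPM (-0.03, adjusted p = 0.994). Their differences fell by 2.60 and 2.71 on the log2 scale from control to waterlogged roots. The unadjusted p of that change was 0.0378 and 0.00273, and HB1_A changed by -0.80 (unadjusted p = 0.0392). ADH1_B and ADH1_C had estimates of the opposite sign (unadjusted p = 0.0251 and 0.00822), with no size given because control Golden Promise was at 0. These were the 5 of the 15 genes with an unadjusted p under 0.05 for the change, and over all genes their adjusted p was 0.87 to 0.979. The alpha-amylase 7HG0721200 changed by -1.82 (unadjusted p = 0.00118, adjusted p = 0.87). For the ABC transporter 3HG0283500 the estimate of the change was negative (unadjusted p = 0.000223, adjusted p = 0.574). No size is given for it because control Infinity was at 0, and the control means of 1.52 CPM in Golden Promise and 1.20 CPM over the winter varieties were close.

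Against single winter varieties, edgeR called 3260 genes in waterlogged Golden Promise against Infinity (15.8%), 2229 against Pilastro (10.8%), 2051 against Passport (9.97%) and 1925 against Regina (9.36%). These comparisons share the Golden Promise libraries. In 516 genes Golden Promise was called with the same sign against all 4, higher in 208 and lower in 308, and 104 genes were called higher against 1 variety and lower against another. Of the 2922 genes called against the mean, 2606 (89.2%) had estimates of 1 sign against all 4 varieties. The mean of these 4 estimates is the difference by which the genes were called, so that a high share is partly built in. The same share over all genes tested was not computed. A mean over logs gives much weight to a variety in which a gene is absent: in 360 of the called genes at least 1 variety had at most 3 counts in each of its waterlogged libraries, and this variety was Golden Promise in 123 genes. Without these genes, 2562 calls were left, 1310 higher and 1252 lower. With the two-row winter varieties alone as the reference 3033 genes were called, and with the six-row ones 2543. Sample names number the libraries of two-row varieties from 1 to 3 and those of six-row varieties from 5 to 7, so that row type and whatever that numbering stands for cannot be told apart.

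Called genes were spread over all 7 chromosomes, from 11.6% of the tested genes on 3H and 11.8% on 4H to 16.2% on 2H and 17.2% on 5H. Genes were next placed in 407 bins of 50 tested genes or slightly more, in the order of their IDs on each chromosome. The share called per bin ran from 0% to 46% with a median of 12%, and 13 bins had over 30%. The highest shares were in bins 3 and 1 of chromosome 7H (46% and 44%) and bins 1 and 4 of 2H (40% each). In the 78 bins nearest the starts of the chromosomes 19.2% of the genes were called, in the 78 nearest the ends 16.9%, and in the 251 bins between them 11.8%. The other varieties showed higher shares toward the ends too, with 16.8%, 12.2% and 9.08% in Infinity and 8.77%, 7.6% and 3.79% in Regina for the bins at the starts, at the ends and between, so that this order was not particular to Golden Promise. Bin 9 of chromosome 5H had 32% called in Golden Promise, and 0% to 6% in the other varieties. This bin was chosen after its value was seen. In control roots, 36% of its genes were called in Golden Promise.

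**Figure D5:**
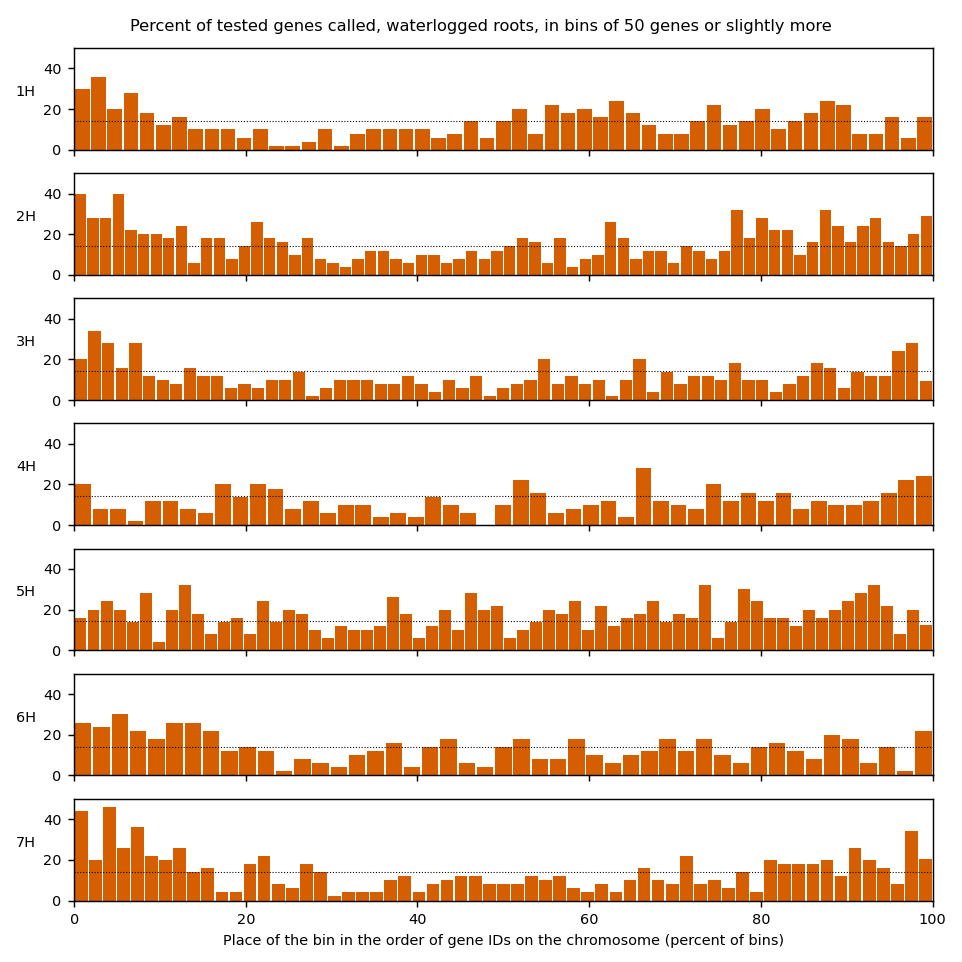
Percent of tested genes called between waterlogged Golden Promise and the winter varieties (y axis) in bins of 50 genes or slightly more, in the order of gene IDs along each chromosome (x axis, percent of bins), with a dotted line at the 14.2% of all genes. Bars are highest near the left ends of 7H and 2H, at 46% and 40%.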

How the data were processed

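Counts per gene were used as deposited. The authors had aligned single-end reads to the Morex V3 barley genome with Bowtie2 2.4.5, handled them with SAMtools 1.15.1 and made whole-number counts with StringTie 2.1.7. Bowtie2 does not splice reads, so reads across introns may be missed. Strand setting and treatment of reads that fit several genes are not given in the sources used here. Waterlogged libraries held 10430091 to 12349136 counts, and 0.0464% of counts lay in genes left out by the filter.

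All 30 libraries were fitted in edgeR 4.0.16 (R 4.3.3) with TMM, filterByExpr, 1 coefficient per variety and treatment and a quasi-likelihood test, as the study combined both factors. P-values were adjusted by Benjamini-Hochberg over 20576 genes, and the procedure was tested on simulated data. The 3 libraries of a group are independent repeats of the experiment. Alternatives were DESeq2 1.42.0, other scaling, filters and winter references, a replicate block, a block within each variety (chosen after seeing the data), the waterlogged libraries alone and leaving out each library.

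Gene descriptions came from those of the study's tables that were at hand and covered 4768 of 35826 genes (13.3%), so the lists are incomplete. No RefSeq gene (0 of 58438) matched the IDs, and no sequences are shown. Named genes were those the study gives by ID, up to 3 called members of each list with the largest difference, the 8 highest and 8 lowest described genes outside the winter range with at least 5 CPM on the higher side, and 2 genes per direction without a description, with the smallest p. Others are said to be chosen after their values were seen. Members and lists were chosen with earlier results of these data known.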

Additional observations from a re-analysis of the deposited data

Results flagged for a closer look

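In 2 genes the difference between Golden Promise and the winter varieties changed with waterlogging in edgeR's test of that change over all genes. A gene on chromosome 5H with no description at hand changed by 2.0114 on the log2 scale (adjusted p = 0.00216), and in waterlogged roots its 3 Golden Promise libraries held 60.5, 54.8 and 45.3 CPM, above all 12 winter libraries. The SGF29 tudor-like domain gene 5HG0450920, named for a subunit of a chromatin-modifying complex, had a fitted change of -10.5441 (adjusted p = 0.00407). This value depends on the prior count and is no fold, since all 3 waterlogged Golden Promise libraries were at 0, and waterlogged Pilastro replicate 3 was at 0 as well. With a replicate block the adjusted p was 0.00751 and 0.0121, and DESeq2 gave 4.05e-11 and 8.49e-10. With same-numbered control and waterlogged libraries of a variety kept together as a block, the adjusted p was 0.0227 and 0.167, so that 5HG0450920 was no longer called. Both genes were singled out after their values were seen.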

How the results depend on the processing

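Of 77 counts recomputed under other settings, 74 stayed within 1.5 times the value reported. The exceptions were a 2-fold minimum, which left 1192 called genes, DESeq2, which called 28 genes for the change with waterlogging in place of 2, and a replicate block within each variety, which called 8. DESeq2 called 3426 genes in the main comparison, of which 2847 were also edgeR's, and 35 genes had no adjusted p there. No filter gave 2890 calls, a minimum mean of 10 counts 2755 and the waterlogged libraries alone 2736. Counting only genes with no waterlogged group at or under 3 counts, an alternative chosen after seeing the data, left 2562. Replicate numbers did not pair Golden Promise with winter libraries: deviations of same-numbered Golden Promise and winter libraries correlated at -0.380 to 0.114 over 13597 genes, above 0.1 in 2 of 12 pairs. With the replicate block 2854 genes were called, 2756 of them shared with the fit without it, and 4 of 77 named calls were lost: HvADH1 (adjusted p = 0.051), 2HG0110060 (0.0508), 1HG0067960 (0.0556) and 7HG0727950 (0.0729). Between control and waterlogged libraries of 1 variety, same-numbered deviations correlated at -0.095 to 0.531, above 0.1 in 12 of 15 pairs, so that not every pair passed. The block within each variety, chosen after seeing the data, shared 1 of its 8 calls with the fit without it and had 1455 genes (7.07%) at an unadjusted p under 0.05. With 1 library left out at a time, the main comparison called 1667 to 2986 genes (1816 without Golden Promise replicate 3), 1183 to 1826 were shared with control roots, 2 to 4 changed with waterlogging and 1442 to 2686 lay outside the winter range. The last count can hardly fall below the 1370 of all libraries, since non-overlap is easier with fewer libraries, so that it does not test that count. Against single varieties the ranges were 1932 to 3383 for Infinity, 1422 to 2179 for Passport, 1467 to 2318 for Pilastro and 1336 to 2038 for Regina. Each winter variety against the other 4 gave 1463 to 2484, 839 to 1435, 1026 to 1866 and 705 to 1213 genes, in the same order. Of the 77 named genes with a call, 43 kept it under every alternative run for them, 34 lost it under at least 1 and 0 reversed. Low counts limit calls for genes near 3 counts per library.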
